A study of Mus musculus with 9 samples.

Results

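The MYC, MAX and MXD network was read in RNA from sorted blood cells of the mouse fetal liver. Its 10 genes were taken by symbol: the Myc family (Myc, Mycn, Mycl), the common partner Max, and the antagonists Mxd1, Mxd3, Mxd4, Mxi1, Mnt and Mga. All 10 were among the 55488 genes listed, and 9 of them were among the 19461 genes that reached 1 TPM, a share of a library's transcripts that is scaled by gene length, in at least 3 of the 9 libraries. Mycl did not reach that level in any library.

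All embryos were C57BL/6 at embryonic day 14.5 and carried the ROSA-Evi1 allele, controls included. Evi1 HSC embryos also carried Tie2-Cre, which recombines in the endothelium and in the blood cells it gives rise to. Their haematopoietic stem cells (HSCs) were sorted as positive for GFP, CD150, c-Kit and Sca-1 and negative for CD48 and lineage markers. WT HSC cells had no Cre and were sorted by that surface gate without GFP. WT KL cells, also without Cre, were positive for c-Kit and negative for Sca-1 and lineage markers, a gate of committed progenitors. Libraries are written by group and replicate number, as in WT HSC 1. Each group had 3 libraries, each made from 100 cells. No label says that the libraries of a group came from separate embryos, so p-values reflect the spread between libraries, which may be technical. TPM keeps no read depth, so the depth behind each value is unknown.

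MYC, MYCN and MYCL are basic helix-loop-helix leucine zipper proteins that bind DNA as dimers with MAX, mainly at the E-box CACGTG, and drive genes of ribosome formation, metabolism and the cell cycle. MXD proteins, MXI1 and MNT compete for MAX, occupy the same sites and bring in SIN3 corepressors with histone deacetylases. MGA also dimerises with MAX and belongs to a Polycomb complex, PRC1.6. In mouse blood stem cells Myc and Mycn are both used, and loss of both is known to end stem cell maintenance.

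Of the libraries, 2 went against their labels by genes outside the network. Mecom, the gene of Evi1 and a stem cell factor, was near 0 (0.0167 TPM) in the library labelled WT HSC 3 and high (90.8 TPM) in the one labelled WT KL 1. It was at 176 to 210 TPM in Evi1 HSC, at 161 and 114 TPM in WT HSC 1 and 2, and at 0.0107 and 0.325 TPM in WT KL 2 and 3. Ly6a and Hlf were likewise high in the library labelled WT KL 1 and low in that labelled WT HSC 3, and Mpo the other way round. The 10 stem cell markers include Mecom itself. They summed to 784 to 894 TPM in Evi1 HSC and to 762 and 786 TPM in WT HSC 1 and 2. In that labelled WT KL 1 they summed to 744 TPM. Their sum was 9.55 TPM in that labelled WT HSC 3, beside 11.8 and 11.5 TPM in WT KL 2 and 3. Endothelial markers, many of them shared with stem cells, summed to 72.4 to 90.5 TPM in Evi1 HSC, 36.6 and 81.8 TPM in WT HSC 1 and 2, and 4.33 and 2.61 TPM in WT KL 2 and 3. Macrophage, lymphoid and mast cell markers summed to at most 18.8 TPM per list in any library, and hepatocyte markers to at most 6.03 TPM, except for 22.0 TPM in that labelled WT KL 1. Groups were kept as labelled over 9 libraries, and each result is also given over the 7 libraries left without these 2.

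The promoters of 3 genes that were higher in both stem cell groups than in WT KL over 7 libraries are shown, because they hold the network's E-box or the letters of an E2F site. The sequences are RefSeq's, build GRCm38.p6, and run 5′ to 3′ up to the first annotated base of the gene. Capitals mark TTTGGCGC, the letters of an E2F site, in Mycn, and the E-box CACGTG in Mxd4 and Mnt.
Mycn, chr12:12941915-12942086, minus strand: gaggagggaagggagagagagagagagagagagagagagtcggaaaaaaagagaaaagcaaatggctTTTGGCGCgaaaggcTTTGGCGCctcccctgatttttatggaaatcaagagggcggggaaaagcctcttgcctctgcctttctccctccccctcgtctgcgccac
Mxd4, chr5:34187721-34187960, minus strand: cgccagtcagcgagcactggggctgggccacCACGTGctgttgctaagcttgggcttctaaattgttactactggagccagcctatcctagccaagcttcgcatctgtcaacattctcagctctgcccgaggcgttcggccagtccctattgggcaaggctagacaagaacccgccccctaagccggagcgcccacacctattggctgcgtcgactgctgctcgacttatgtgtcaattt
Mnt, chr11:74830674-74830919, plus strand: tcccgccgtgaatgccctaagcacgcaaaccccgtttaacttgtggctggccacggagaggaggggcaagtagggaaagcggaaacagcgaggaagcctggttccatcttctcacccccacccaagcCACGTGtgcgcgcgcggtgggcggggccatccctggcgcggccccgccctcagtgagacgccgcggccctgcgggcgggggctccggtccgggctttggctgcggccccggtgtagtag
The Mycn promoter held TTTGGCGC 2 times, a motif chosen after its sequence was seen. Within 250 bases before the RefSeq start, searched on both strands, 0.417% of 32851 promoters held it, and so did 1 of the 11 promoter entries that matched 9 of the 10 genes. CACGTG was in 2 of these 11 entries and in 6.02% of all promoters, 219 bases before the start in Mxd4 and 123 bases before it in Mnt. GACAAGATA and GAAGATGAG, motifs known for Evi1's zinc fingers, were in 0 of the 11 entries and in 0.107% and 0.347% of all promoters. No member entry held more than 1 of these motifs. A match describes these letters and no binding was measured. Myc had no entry.

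Mycn was the main Myc family transcript in Evi1 HSC, and Myc was nearly the only one in WT KL 2 and 3. Mycn, first known as the MYC gene of neuroblastoma, lies on chromosome 12 from 12936093 to 12941914, minus strand (GRCm38). Mycn was at 91.0, 74.0 and 92.5 TPM in Evi1 HSC 1 to 3. In WT HSC it was at 86.9 and 87.6 TPM in replicates 1 and 2 and at 0.385 TPM in the one labelled WT HSC 3. In WT KL it was at 84.8 TPM in the one labelled WT KL 1 and at 0.0476 and 0.497 TPM in replicates 2 and 3. Every library thus lay either at 74.0 TPM or above or below 0.5 TPM, and the 2 libraries against their labels fell on the side of the other group.

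Myc, the founding member of the family, lies on chromosome 15 from 61985391 to 61990374, plus strand. Myc was at 12.4, 9.90 and 19.1 TPM in Evi1 HSC. It was at 33.2 and 17.6 TPM in WT HSC 1 and 2 and at 86.2 TPM in the one labelled WT HSC 3. In WT KL it was at 19.0 TPM in the one labelled WT KL 1, and at 99.9 and 93.9 TPM in replicates 2 and 3. Evi1 HSC overlapped WT HSC, since its replicate 3 lay above WT HSC 2. Myc was detected in every library, at 9.90 TPM or more, whereas the low side of Mycn was near 0. Mycl, the third family gene, was listed at 0 in 6 libraries and reached 0.0564 TPM at most.

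**Figure D1:**
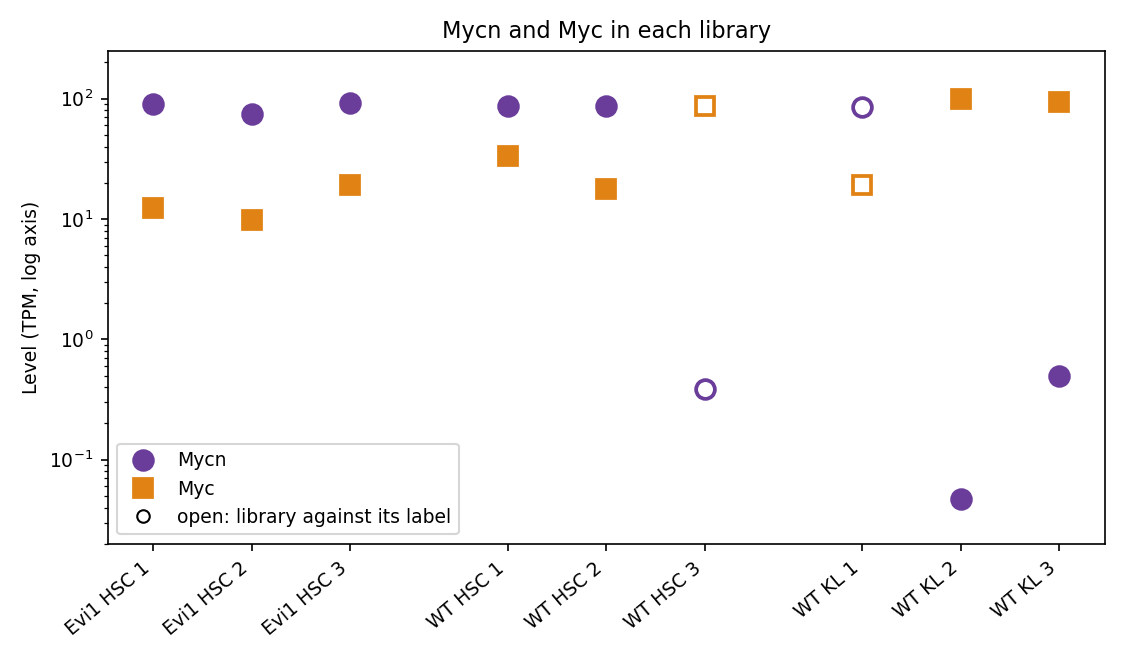
Levels of Mycn (circles) and Myc (squares) in TPM on a log axis, 1 point per library, for Evi1 HSC, WT HSC and WT KL 1 to 3. Open points are the 2 libraries against their labels. Mycn is at 74.0 to 92.5 TPM in 6 libraries and below 0.5 TPM in the other 3, which hold 86.2 to 99.9 TPM of Myc.

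Mycn made up 88.0, 88.2 and 82.9% of the sum of Myc and Mycn in Evi1 HSC. Its share was 72.4 and 83.3% in WT HSC 1 and 2 and 0.445% in the one labelled WT HSC 3. In WT KL the share was 81.7% in the one labelled WT KL 1, and 0.0476 and 0.526% in replicates 2 and 3. Since TPM is scaled by gene length, the 2 levels can be set side by side within a library.

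The sum of the 2 genes moved far less than its makeup. Myc and Mycn together stood at 103, 83.9 and 112 TPM in Evi1 HSC. They stood at 120 and 105 TPM in WT HSC 1 and 2 and at 86.6 TPM in the one labelled WT HSC 3. The WT KL sums were 104 TPM in the one labelled WT KL 1 and 99.9 and 94.4 TPM in replicates 2 and 3. The highest sum was 1.43 times the lowest over 9 libraries, whereas Myc alone spanned 10.1-fold and Mycn stood below 0.5 TPM in 3 libraries.

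As a log2 ratio of Mycn to Myc, each with 1 TPM added, the balance averaged 2.59 ± 0.32 in Evi1 HSC (SD, n = 3), 1.81 ± 0.63 in WT HSC 1 and 2 (n = 2) and -6.29 ± 0.43 in WT KL 2 and 3 (n = 2). The difference between group means over these 7 libraries was 0.79 for Evi1 HSC minus WT HSC (0.34 without WT HSC 1 and 1.23 without WT HSC 2), 8.88 for Evi1 HSC minus WT KL and 8.09 for WT HSC minus WT KL. In the first of these the ranges overlapped, at 2.22 to 2.78 in Evi1 HSC and 1.36 to 2.25 in WT HSC. Over 9 libraries as labelled the 3 differences were 3.38, 6.08 and 2.70, and the SD was 4.52 in WT HSC and 4.85 in WT KL. Without the library labelled WT HSC 3 the first was 0.79, and leaving out any 1 of the 6 WT libraries moved the last, to 1.16 at the lowest and 5.50 at the highest. The balance is a description and was not tested.

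Max, the shared partner of the network, was close to level. It was at 23.4, 37.3 and 34.7 TPM in Evi1 HSC. WT HSC 1 and 2 held 33.1 and 34.0 TPM, with 37.4 TPM in the one labelled WT HSC 3. WT KL held 39.3 TPM in the one labelled WT KL 1 and 42.0 and 34.7 TPM in replicates 2 and 3. The 9 values spanned 1.8-fold, and Evi1 HSC 1 was the lowest. No fit called Max. Its log2 difference over 7 libraries was -0.10 (SE 0.21, adjusted p = 0.95) for Evi1 HSC against WT HSC, -0.29 (SE 0.21, adjusted p = 0.313) for Evi1 HSC against WT KL and -0.18 (SE 0.23, adjusted p = 0.572) for WT HSC against WT KL, by limma.

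Of the 6 antagonists, 5 were called in Evi1 HSC against WT KL over 7 libraries, where 45.5% of all tested genes were called: Mxd4, Mxd1, Mnt and Mga were higher and Mxi1 was lower. Mxd4, an MXD protein of resting and differentiating cells, was at 12.2, 10.1 and 13.0 TPM in Evi1 HSC. It was at 12.1 and 14.0 TPM in WT HSC 1 and 2 and at 2.20 TPM in the one labelled WT HSC 3. In WT KL it was at 14.1 TPM in the one labelled WT KL 1 and at 2.14 and 2.23 TPM in replicates 2 and 3. The pattern of high and low libraries was that of Mycn.

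Mxd1, the first MXD protein described, was at 9.50, 9.50 and 8.50 TPM in Evi1 HSC. WT HSC 1 and 2 held 9.10 and 7.11 TPM, with 4.43 TPM in the one labelled WT HSC 3. WT KL held 8.60 TPM in the one labelled WT KL 1 and 2.81 and 3.29 TPM in replicates 2 and 3. Mnt, which is made in most cell types and limits MYC there, was at 8.65, 7.80 and 9.30 TPM in Evi1 HSC. It was at 8.16 and 7.70 TPM in WT HSC 1 and 2 and at 3.10 TPM in the one labelled WT HSC 3. WT KL held 8.21 TPM in the one labelled WT KL 1 and 4.67 and 3.86 TPM in replicates 2 and 3. For Mxd1 and Mnt, as for Mxd4, all 3 Evi1 HSC libraries lay above WT KL 2 and 3. The share of all tested genes with that order is not given. Since 31.3% of them were called higher over 7 libraries, the order is not read as particular to these genes.

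Mga, the most abundant antagonist in 8 of 9 libraries, was at 35.9, 39.98 and 51.2 TPM in Evi1 HSC. It was at 39.2 and 39.7 TPM in WT HSC 1 and 2 and at 22.9 TPM in the one labelled WT HSC 3. WT KL held 45.9 TPM in the one labelled WT KL 1 and 27.9 and 23.9 TPM in replicates 2 and 3. Mga had the same high and low libraries as Mxd4, over a narrower range of 2.24-fold.

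Mxi1, an MXD relative that also recruits SIN3, ran the other way in part. It was at 4.05, 4.76 and 4.31 TPM in Evi1 HSC. In WT HSC it was at 3.25 TPM in replicate 1, at 27.3 TPM in replicate 2 and at 21.4 TPM in the one labelled WT HSC 3. WT KL held 7.99 TPM in the one labelled WT KL 1 and 28.5 and 21.2 TPM in replicates 2 and 3. WT HSC 2 thus held a level of the WT KL range while its Mycn, Mxd4 and Mga were those of WT HSC 1. Mxd3, an MXD protein tied to S phase, was low throughout, at 1.31 to 3.79 TPM.

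**Figure D2:**
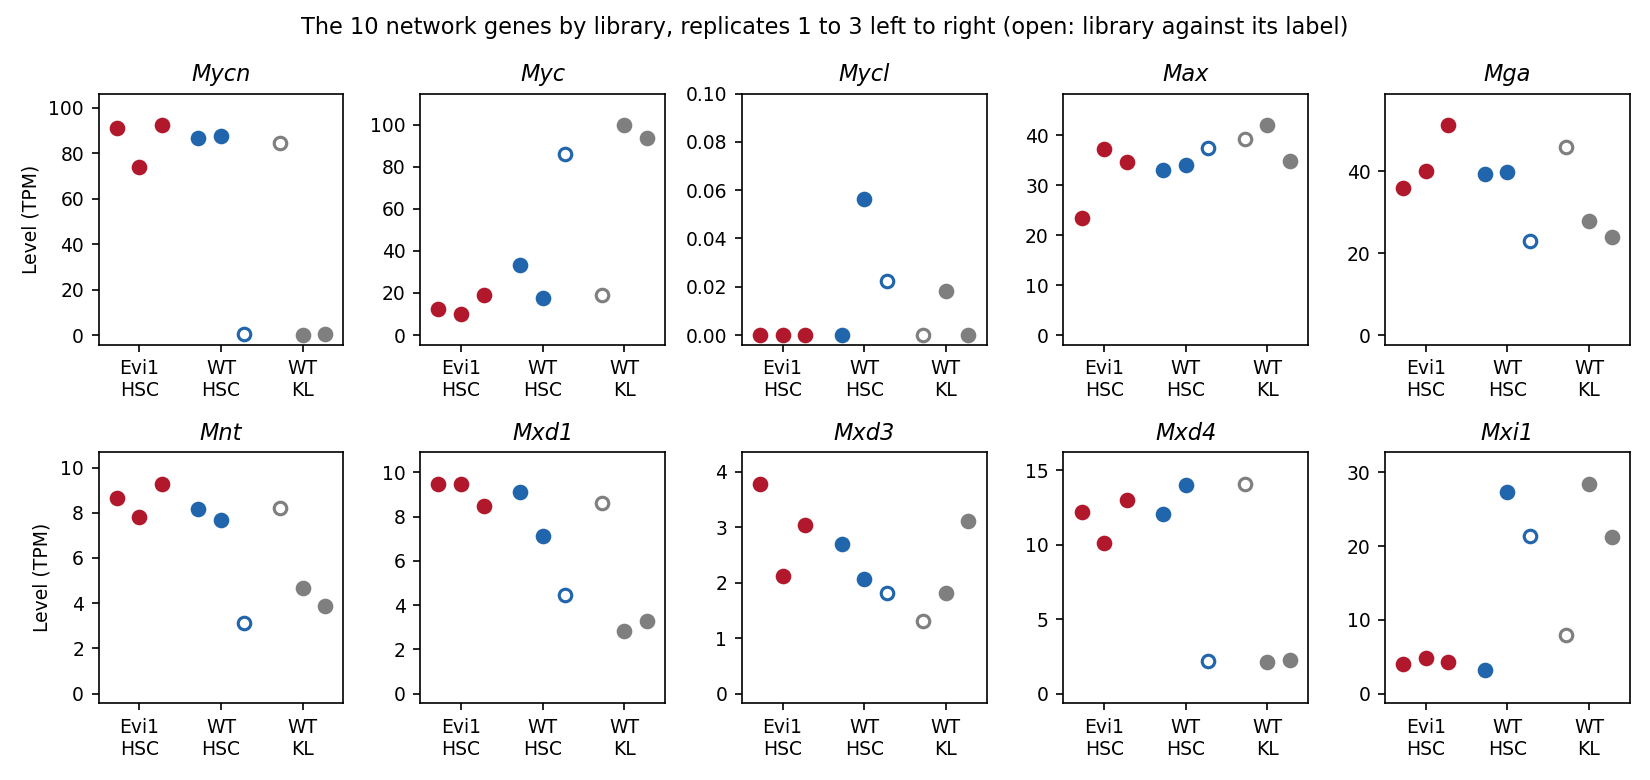
Level in TPM (vertical axis, linear) of each of the 10 genes in Evi1 HSC (red), WT HSC (blue) and WT KL (grey), with replicates 1 to 3 from left to right in each group. Open points are the 2 libraries against their labels. Mycn, Mxd4, Mxd1, Mnt and Mga are lower in WT KL 2 and 3 than in the 3 Evi1 HSC libraries, Myc and Mxi1 are higher there, and Max stays between 23.4 and 42.0 TPM.

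The 6 antagonists summed to 74.1, 74.3 and 89.4 TPM in Evi1 HSC. The sum was 74.5 and 97.9 TPM in WT HSC 1 and 2 and 55.8 TPM in the one labelled WT HSC 3. In WT KL it was 86.1 TPM in the one labelled WT KL 1 and 67.9 and 57.6 TPM in replicates 2 and 3. Mxi1 made up 13.7 to 18.0% of the MXD transcripts (Mxd1, Mxd3, Mxd4 and Mxi1) in Evi1 HSC, 12.0 and 54.1% in WT HSC 1 and 2, and 80.8 and 71.1% in WT KL 2 and 3. The family sum was 1.08 to 1.64 times the antagonist sum in the 9 libraries, with 1.13 to 1.40 in Evi1 HSC, 1.61 and 1.08 in WT HSC 1 and 2, and 1.47 and 1.64 in WT KL 2 and 3.

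**Figure D3:**
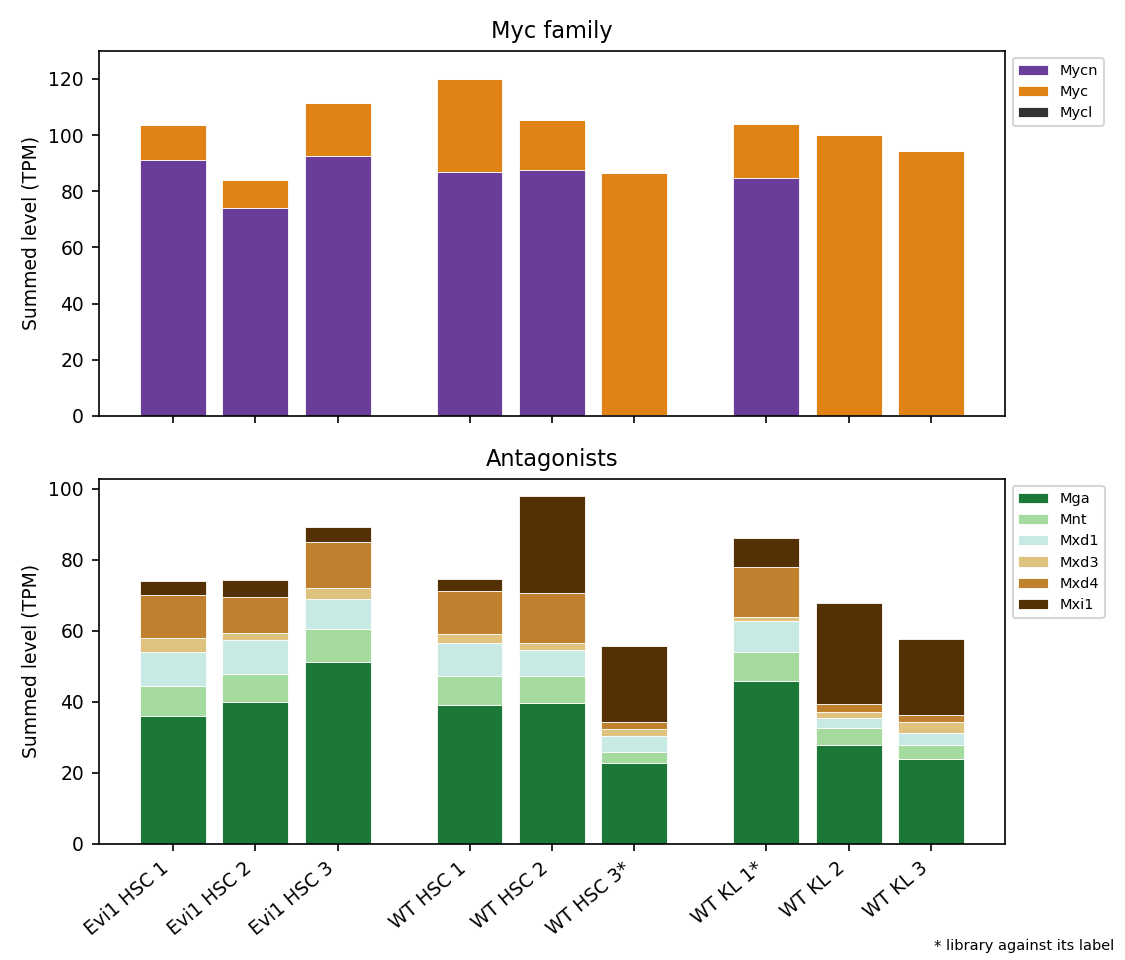
Stacked bars of summed TPM per library, for the Myc family (upper panel) and the 6 antagonists (lower panel), in Evi1 HSC, WT HSC and WT KL. Asterisks mark the 2 libraries against their labels. The family bars run from 83.9 to 120 TPM while Mycn or Myc fills most of each, and in the lower panel Mxi1 is the widest MXD segment in WT HSC 2, the library labelled WT HSC 3 and WT KL 2 and 3.

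Some antagonist values carry a counting limit. Mxd3 shares 105 of 2369 exonic bases with Prelid1, Mxd4 shares 514 of 8483 with Gm42846, and Mxi1 shares 194 of 6823 with Gm10197, each on the opposite strand. Whether counting used strand was not given in the sources used here. Prelid1 stood at 42.3 to 75.3 TPM, and reads of such a pair cannot be told apart without strand. Gm42846 was listed at 0 in all 9 libraries, and Gm10197 at 0 to 3.21 TPM.

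The first comparison sets Evi1 HSC against WT HSC, stem cells of 1 surface phenotype. Ectopic Evi1, Tie2-Cre and the GFP gate differ together between these groups and cannot be told apart. With 9 libraries as labelled, limma called 0 of the 9 tested members for Evi1 HSC against WT HSC, against 0.00514% of all tested genes, and 0 members had an unadjusted p under 0.05. Mycn differed by 1.97 (SE 1.96, adjusted p = 0.791) and Myc by -1.41 (SE 0.72, adjusted p = 0.791), on the log2(TPM + 1) scale used for every difference here. That scale understates the change of low genes. The library labelled WT HSC 3 sets the first value: without it Mycn differed by -0.03.

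Over 7 libraries the count for Evi1 HSC against WT HSC was again 0 of 9, against 0.206% of all tested genes, with 1 member, Myc, at an unadjusted p under 0.05. Myc averaged 13.8 ± 4.74 TPM in Evi1 HSC (SD, n = 3) and 25.4 ± 11.03 TPM in WT HSC (n = 2), a log2 difference of -0.82 (SE 0.33, adjusted p = 0.576). Mycn averaged 85.8 ± 10.3 TPM in Evi1 HSC and 87.2 ± 0.474 TPM in WT HSC, a difference of -0.03 (SE 0.19, adjusted p = 0.987). Mxi1 differed by -1.03 (SE 0.70, adjusted p = 0.758) and by 0.34 without WT HSC 2. The other 6 tested members differed by -0.14 to 0.22. With 3 and 2 libraries, a p above the threshold does not show that the levels were equal.

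The comparisons with WT KL set stem cells against committed progenitors, and both use the same WT KL libraries. WT HSC is likewise shared by the first and the last comparison. With 9 libraries limma called 0 of 9 members for Evi1 HSC against WT KL, where 0.0103% of all tested genes were called. An unadjusted p under 0.05 was found for 3 members, Myc, Mxd1 and Mxi1, each with an adjusted p of 0.31. The share of all tested genes at that unadjusted p is not given. Neither this count nor those of the lists below are thus read as particular to a set. For WT HSC against WT KL limma also called 0 of 9, against 0.00514% of all genes, and 0 had an unadjusted p under 0.05. Mycn differed by 4.08 (SE 1.96, adjusted p = 0.31) in Evi1 HSC against WT KL and by 2.11 (SE 1.96, adjusted p = 0.963) in WT HSC against WT KL.

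Over 7 libraries 7 of 9 members were called for Evi1 HSC against WT KL, 5 higher and 2 lower. Of all tested genes 45.5% were called, 31.3% higher and 14.3% lower. For WT HSC against WT KL 6 of 9 members were called, 5 higher and 1 lower, against 37.5% of all genes, 26.7% higher and 10.8% lower. Neither count is read as particular to the network. The median of all tested genes was itself shifted, by 0.28 in Evi1 HSC and 0.26 in WT HSC against WT KL. With quantile normalization these shifts were -0.05 and -0.06. The share of higher among called genes was then 50.7% in place of 68.7% for Evi1 HSC, and 52.3% in place of 71.2% for WT HSC.

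Beside those medians, Mycn was higher by 6.11 (SE 0.19, adjusted p = 1.08e-05) in Evi1 HSC against WT KL and by 6.14 (SE 0.21, adjusted p = 2.22e-05) in WT HSC against WT KL. Myc fell in both: its difference was -2.77 (SE 0.33, adjusted p = 0.000768) in Evi1 HSC and -1.96 (SE 0.36, adjusted p = 0.00633) in WT HSC. Mxd4 was higher by 1.996 (adjusted p = 0.000208) in Evi1 HSC and by 2.14 (adjusted p = 0.000373) in WT HSC. These 3 genes were called in both comparisons under all 15 alternatives run. The 2 libraries were left out by their Mecom, Ly6a, Hlf and Mpo, genes that separate the same libraries as Mycn. The limma p-values over 7 libraries do not allow for that choice.

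Mxd1 was higher by 1.33 (adjusted p = 0.00118) in Evi1 HSC and by 1.16 (adjusted p = 0.00414) in WT HSC against WT KL. The Mnt difference was 0.86 (adjusted p = 0.00553) in Evi1 HSC and 0.77 (adjusted p = 0.0162) in WT HSC, and that of Mga was 0.68 (adjusted p = 0.0177) in Evi1 HSC and 0.59 (adjusted p = 0.0468) in WT HSC. Quantile normalization ended the Mnt call in both, at 0.38 and 0.26, and the Mxd1 and Mga calls in WT HSC against WT KL, at 0.62 and 0.59. Leaving out 1 library of either WT group ended the Mga call in WT HSC against WT KL (adjusted p = 0.0878 to 0.194), as did leaving out Evi1 HSC 2 (adjusted p = 0.0662). It was called there under 6 of 15 alternatives. The Mnt call, made under 10 of 15, ended without WT HSC 1 or 2 or WT KL 3 (adjusted p = 0.0587 to 0.0899), and the Mga call in Evi1 HSC against WT KL ended without WT KL 3 (adjusted p = 0.11).

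The Mxi1 difference was -2.25 (SE 0.70, adjusted p = 0.0354) in Evi1 HSC against WT KL, a call made under 8 of 15 alternatives. It ended without any 1 of the 3 Evi1 HSC or the 2 WT KL libraries (adjusted p = 0.0703 to 0.162). In WT HSC against WT KL its difference was -1.22 (SE 0.76, adjusted p = 0.248). Without WT HSC 2 it was -2.59 (adjusted p = 0.00327), and without WT HSC 1 it was 0.15. Mxd3 differed by 0.21 in Evi1 HSC and by -0.01 in WT HSC against WT KL, and its sign turned with the scaling. Each library is a bulk sample, in which fewer cells of a type and less RNA per cell cannot be told apart. The 8 granulocyte and monocyte markers summed to 32.2 to 37.6 TPM in Evi1 HSC, 39.7 and 25.2 TPM in WT HSC 1 and 2, and 1811 and 593 TPM in WT KL 2 and 3. Between 18258 and 18806 genes reached 1 TPM in the first 5 of these and 15819 and 15550 in the last 2. The part of these differences in the results was not tested.

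**Figure D4:**
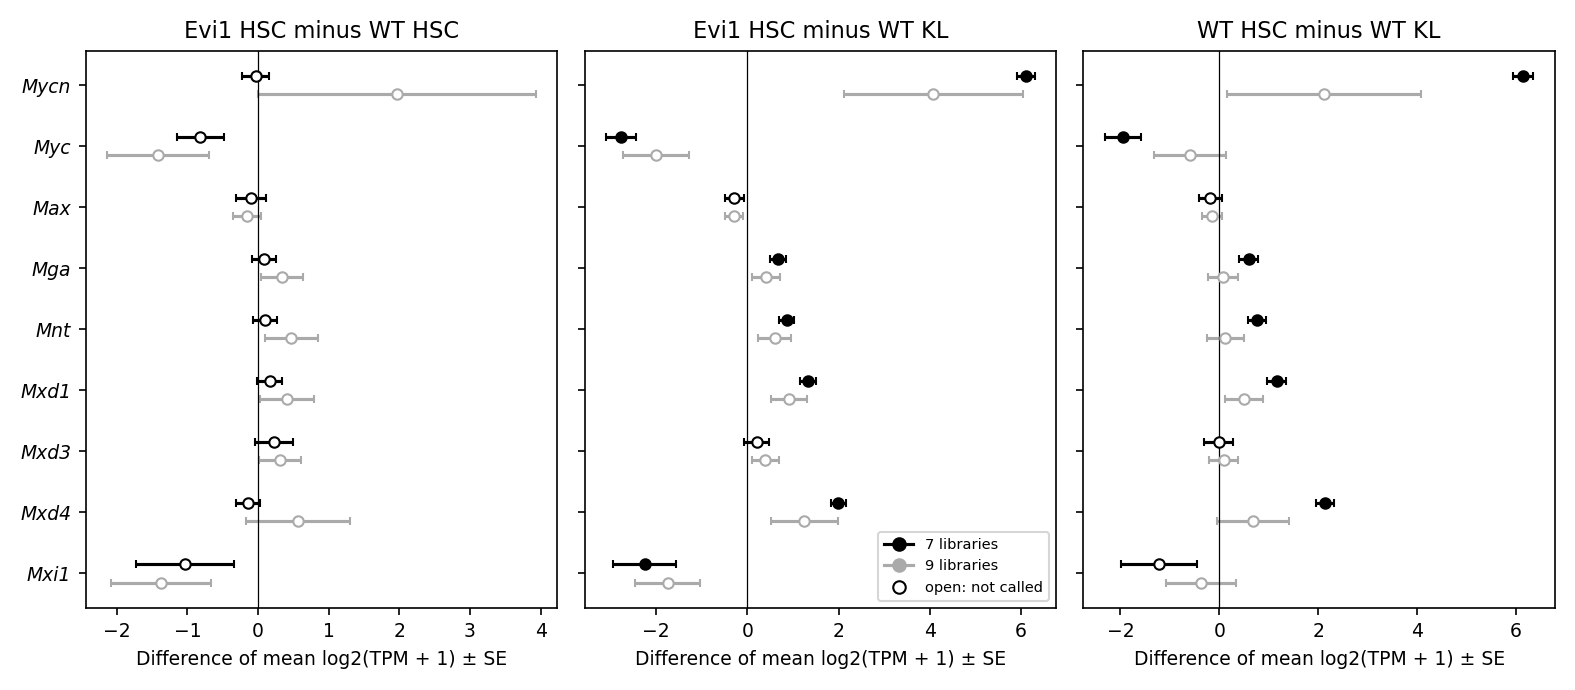
Difference of mean log2(TPM + 1) with its SE (horizontal axis) for the 9 tested members in the 3 comparisons, over 7 libraries (black) and over 9 libraries as labelled (grey). Filled points passed an adjusted p of 0.05. Mycn stands near 6.1 in both comparisons with WT KL over 7 libraries and at -0.03 in Evi1 HSC against WT HSC, and every point over 9 libraries is open.

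MYC-activated growth genes, a list of 26, stood lower in the stem cell libraries, where Myc was low and Mycn high. Most act in ribosome formation, nucleotide and polyamine synthesis or translation, and the list also holds the cell cycle genes Cdk4 and Ccnd2, the metabolic enzyme genes Ldha and Shmt2, and Tfrc. They summed to 2096, 2303 and 2305 TPM in Evi1 HSC and to 2657 and 2265 TPM in WT HSC 1 and 2. In WT KL 2 and 3 they summed to 5247 and 4936 TPM. The sum was 5031 TPM in the library labelled WT HSC 3 and 2405 TPM in that labelled WT KL 1. Over 9 libraries limma called 0 of the 26 in each of the 3 comparisons, and 3, 16 and 0 had an unadjusted p under 0.05 for Evi1 HSC against WT HSC, then Evi1 HSC and then WT HSC against WT KL. No share over all tested genes stands beside these unadjusted counts.

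Over 7 libraries 21 of the 26 fell and 1 rose in Evi1 HSC against WT KL, with a median difference of -1.31 beside 0.28 over all tested genes, of which 14.3% fell and 31.3% rose. In WT HSC against WT KL 20 fell and 1 rose, with a median of -1.02 beside 0.26 over all tested genes, of which 10.8% fell and 26.7% rose. Tfrc, the transferrin receptor, had levels of 33.8, 18.9 and 20.7 TPM in Evi1 HSC, 76.7 and 71.8 TPM in WT HSC and 342 and 375 TPM in WT KL. Srm, the spermidine synthase, differed by -2.21 (adjusted p = 7.36e-05) in Evi1 HSC and by -1.55 (adjusted p = 0.000645) in WT HSC against WT KL. Odc1, the first enzyme of polyamine synthesis, differed by -1.68 in Evi1 HSC and by -1.50 in WT HSC, and Ddx21, an RNA helicase of the nucleolus, by -1.52 and -1.31. The gene that rose was Ccnd2, a D-type cyclin, at 0.79 in Evi1 HSC and 0.92 in WT HSC. It was chosen after its values were seen.

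Between Evi1 HSC and WT HSC over 7 libraries 0 of the 26 growth genes were called, and 7 had an unadjusted p under 0.05. The share of all tested genes at that unadjusted p is not given. Their median difference was -0.29, beside a median of 0.0005 over all tested genes, and 20 of the 26 were negative. In 12 of the 26 all 3 Evi1 HSC libraries lay below both WT HSC libraries, beside 12.3% of all tested genes with that order. Tfrc had the smallest adjusted p, at -1.61 (SE 0.24, adjusted p = 0.0845), and was picked after its values were seen. Tfrc is also strongly made in red cell precursors. The 8 erythroid markers summed to 1460, 697 and 878 TPM in Evi1 HSC and to 640 and 711 TPM in WT HSC 1 and 2, but the globin gene Hbb-bt made up most of that, with 1429, 681 and 862 TPM in Evi1 HSC 1 to 3, against 545 and 619 TPM in WT HSC 1 and 2. The erythroid genes Gata1, Klf1, Epor, Ermap and Car1 ran the other way, each lower in all 3 Evi1 HSC libraries than in WT HSC 1 and 2, as Tfrc was. Klf1, a transcription factor of red cell precursors, had 2.51, 0.474 and 0.110 TPM in the Evi1 HSC libraries, against 23.1 and 21.1 TPM in WT HSC 1 and 2. The part of these genes in the Tfrc value was not tested.

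Of 10 genes that MYC is known to repress, 7 were tested. Over 7 libraries 4 rose and 2 fell in Evi1 HSC against WT KL, 4 rose and 1 fell in WT HSC against WT KL, and 0 were called between Evi1 HSC and WT HSC, where 0 had an unadjusted p under 0.05. Of all tested genes 31.3% rose and 14.3% fell in Evi1 HSC, and 26.7% rose and 10.8% fell in WT HSC, both against WT KL. The list's median differences from WT KL were 1.53 in Evi1 HSC and 1.20 in WT HSC, beside 0.28 and 0.26 over all tested genes. Over 9 libraries 0 were called, with 0, 3 and 1 at an unadjusted p under 0.05 in the order of comparisons above. Cdkn1c, which encodes the cell cycle inhibitor p57, had levels of 30.8, 27.1 and 35.5 TPM in Evi1 HSC, 21.7 and 27.8 TPM in WT HSC 1 and 2, and 1.44 and 1.29 TPM in WT KL 2 and 3. It rose by 3.76 (adjusted p = 3.27e-05) in Evi1 HSC and by 3.44 (adjusted p = 9.71e-05) in WT HSC against WT KL. Cdkn1b, which encodes p27, rose by 1.64 in Evi1 HSC and by 1.20 in WT HSC, and Ndrg1, a stress gene, by 0.74 and 0.84. Gadd45a, a DNA damage response gene, went the other way, at -1.42 in Evi1 HSC and -1.37 in WT HSC.

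Against WT KL over 7 libraries 45.5% of all tested genes were called in Evi1 HSC and 37.5% in WT HSC, with medians of 0.28 and 0.26. Beside those shares, no count of the remaining lists is read as particular to a list. Of 13 tested genes that act on MYC protein stability, 5 rose and 2 fell over 7 libraries in each of the comparisons with WT KL, with medians of 0.28 in Evi1 HSC and -0.03 in WT HSC. Pim2, a kinase that can stabilise MYC, had levels of 10.3, 19.8 and 8.91 TPM in Evi1 HSC, 18.7 and 14.6 TPM in WT HSC and 1.69 and 1.13 TPM in WT KL. Its difference was 2.47 (adjusted p = 0.00136) in Evi1 HSC and 2.87 (adjusted p = 0.00156) in WT HSC against WT KL. Pim1, its relative, rose by 1.78 in Evi1 HSC and by 1.96 in WT HSC, and Usp28, a deubiquitinase that spares MYC, by 1.76 and 2.13. Trpc4ap, part of a ubiquitin ligase for MYC, rose by 0.78 in Evi1 HSC and by 0.69 in WT HSC. Aurka, a kinase known to protect MYCN from degradation, fell by 0.73 in Evi1 HSC and by 0.76 in WT HSC.

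Among 12 coactivators and cofactors 3 rose and 3 fell in Evi1 HSC against WT KL, where 45.5% of all tested genes were called. In WT HSC against WT KL 2 rose and 3 fell, where 37.5% of all tested genes were called. The medians were 0.21 and 0.22, beside 0.28 and 0.26 over all tested genes. Trrap, the scaffold through which MYC recruits histone acetylases, rose by 1.08 in Evi1 HSC and by 0.90 in WT HSC, and Bptf, a chromatin remodelling subunit, by 0.76 and 0.72. The helicase genes Ruvbl2 and Ruvbl1 were lower, at -1.37 and -0.60 in Evi1 HSC and at -0.93 and -0.42 in WT HSC. Wdr5, a cofactor that MYC binds on chromatin, was lower in both, at -0.49 in Evi1 HSC and -0.41 in WT HSC.

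Among 10 corepressor genes used by MXD and MNT 4 rose and 0 fell in Evi1 HSC against WT KL, and 2 rose and 0 fell in WT HSC, where 31.3% and 26.7% of all tested genes rose. The medians were 0.44 and 0.39. Sin3a, the core scaffold, rose by 0.65 in Evi1 HSC and by 0.53 in WT HSC, and Arid4a, a subunit of its complex, by 1.12 and 1.25. Hdac1, a deacetylase, and Sin3b, the second scaffold, rose by 0.45 and 0.79 in Evi1 HSC. Of 9 partners of MGA, 1 rose and 4 fell in Evi1 HSC and 1 rose and 2 fell in WT HSC against WT KL, with 14.3% and 10.8% of all tested genes lower. The medians were -0.44 and -0.30. L3mbtl2, a PRC1.6 subunit, fell by 1.30 in Evi1 HSC and by 1.03 in WT HSC, and Tfdp1, the E2F dimer partner, by 0.98 and 1.08. Rnf2, a ubiquitin ligase of Polycomb complexes, rose by 0.81 in Evi1 HSC and by 0.57 in WT HSC, and Cbx3, a heterochromatin protein, fell by 0.44 in Evi1 HSC.

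In the neighbouring MLX branch 2 of 3 genes were tested. Mlxip, a glucose-sensing partner of MLX, rose by 0.99 in Evi1 HSC and by 0.77 in WT HSC against WT KL, and Mlx fell by 0.59 and 0.71. In Evi1 HSC against WT HSC 0 genes of these 5 lists were called, with 0 to 2 per list at an unadjusted p under 0.05, and over 9 libraries 0 were called in any comparison, with 0 or 1 per list. The counts of the smaller lists moved with the processing: over 7 libraries, 15 alternatives called 1 to 5 corepressor genes higher in Evi1 HSC and 0 to 4 in WT HSC against WT KL, 1 to 4 and 0 to 2 MGA partners lower, and 2 to 4 and 1 to 4 of the repressed genes higher. Corepressor genes called lower numbered 0 to 2 in Evi1 HSC and 0 to 1 in WT HSC against WT KL. Growth genes called lower numbered 19 to 21 in Evi1 HSC and 14 to 20 in WT HSC against WT KL, and 0 to 1 in Evi1 HSC against WT HSC.

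**Figure D5:**
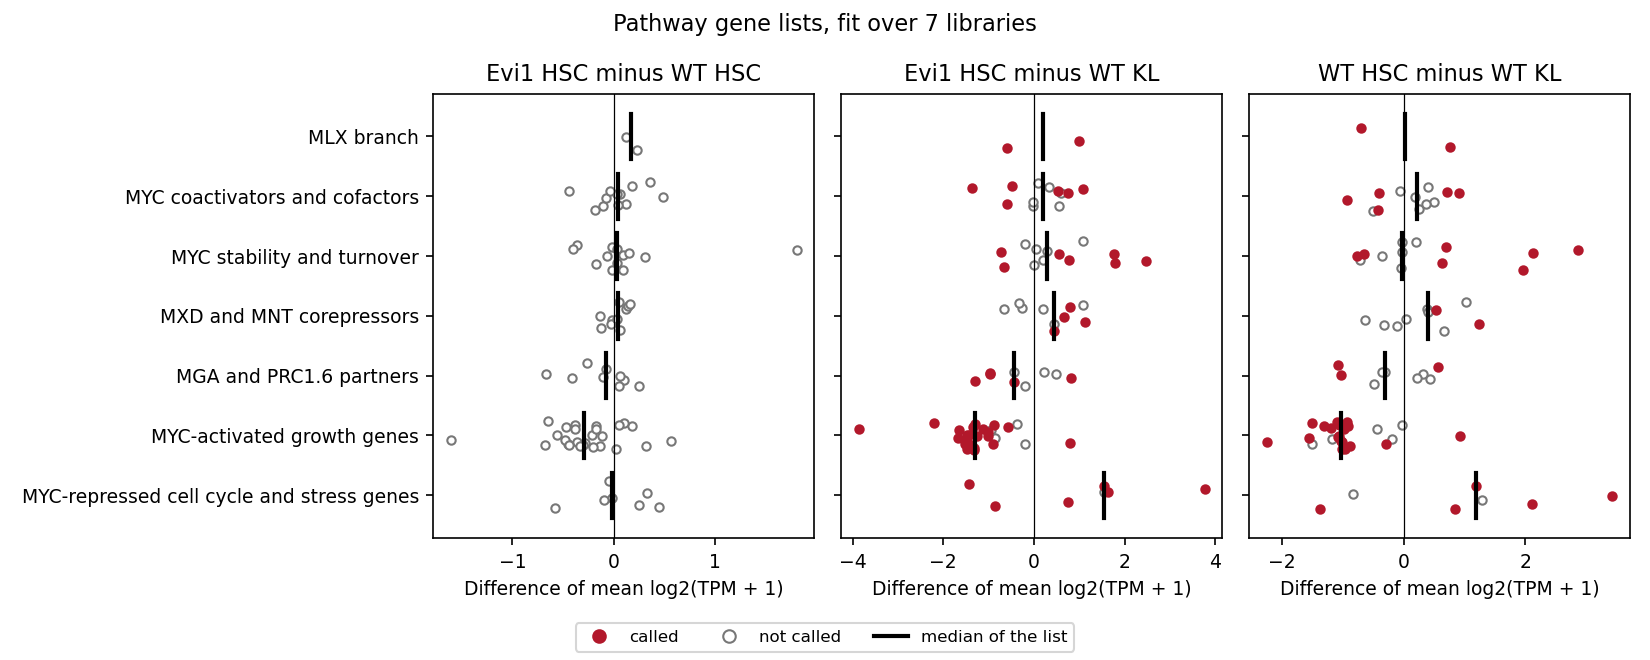
Difference of mean log2(TPM + 1) (horizontal axis) for every tested gene of 7 lists around the network, over 7 libraries, in the 3 comparisons. Red points were called, open points were not, and black bars are list medians. The growth genes have medians of -1.31 and -1.02 against WT KL and -0.29 between Evi1 HSC and WT HSC, where no point is red.

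By Pearson r of log2(TPM + 1) over 9 libraries, among tested genes that averaged 10 TPM or more, the genes most like Mycn were Gcnt2, Igf2bp2, Fgd5, Mmrn1 and Tek (r = 0.9988 to 0.9991). Among those most like Myc were C1qtnf12, Mthfd1l, Dtwd1 and Mpv17l2 (r = 0.9922 to 0.9966). Gcnt2 was at 118 to 137 TPM in Evi1 HSC, 114 and 126 TPM in WT HSC 1 and 2, and 0.214 and 0.333 TPM in WT KL 2 and 3. The libraries form 2 clusters, of 6 and 3, and the step between them enters each r, so it is a description with no p. Within the 6, C1qtnf12 was lowest in Evi1 HSC 2 (10.9 TPM) and highest in WT HSC 1 (22.7 TPM), as Myc was. Fgd5 is also among the stem cell markers.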

How the data were processed

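RNA was measured in 9 libraries of 100 sorted cells, 3 per group. The deposited values are TPM per gene, made by the authors, with 1 library per file. Per the submitters' processing notes, HISAT2, StringTie and mm10 were used. What each tool did, its version, the gene models and any use of strand were not given in the sources used here. In the file of WT HSC 2 the value column has another header (C_H3) and was read as TPM by its range and sum. Listed genes took 56.9 to 63.8% of the TPM scale in each library. Because TPM is a share of a library, a rise of abundant genes lowers the values of the rest. Read depth and counting error are unknown.

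Values were taken as log2(TPM + 1). Of 55488 genes, the 19461 that reached 1 TPM in 3 or more libraries were fitted with limma 3.58.1 in R 4.3.3, with 1 mean per group, a mean trend, two-sided moderated tests and Benjamini-Hochberg adjustment over all of them, and called at an adjusted p under 0.05. The fit was made over 9 libraries as labelled and over 7, without the 2 that went against their labels, and was tested on simulated data. With 2 libraries in each WT group the spread is pooled over groups.

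The members, the 7 pathway lists, the markers and the choice of the 7 libraries were made with earlier results of these data known. All members are named, and per list and comparison up to 4 called genes with the smallest adjusted p over 7 libraries. For Mycn and Myc the 5 genes with the highest r are named, leaving out predicted and clone names; 1 of those for Myc is not reported here. Alternatives were the pseudocount, the filter, the scaling, the samples fitted, the mean trend, a replicate block and each library left out. Promoters are RefSeq's (GRCm38.p6), positions of genes those of GRCm38. Figures were drawn with matplotlib 3.10.9.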

Additional observations from a re-analysis of the deposited data

How the results depend on the processing

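Over 7 libraries the count of members called for WT HSC against WT KL was 6, and 3 with quantile normalization; with each library left out it was 4 to 6, and for Evi1 HSC against WT KL it was 5 to 7. The difference in balance moved with the pseudocount, to 11.03 with 0.1 TPM and 11.98 with none for Evi1 HSC against WT KL, and to 10.20 and 11.15 for WT HSC against WT KL. With each library left out the balance differed by 0.34 to 1.23 for Evi1 HSC against WT HSC, 8.58 to 9.18 for Evi1 HSC against WT KL and 7.65 to 8.54 for WT HSC against WT KL over 7 libraries, and by 0.79 to 4.90, 4.54 to 8.88 and 1.16 to 5.50 over 9, where the members called numbered 0 in all comparisons. No label used here says whether replicate numbers pair the libraries. The values cannot decide it, because 1 library of each WT group went against its label. Deviations of same-numbered Evi1 HSC and WT HSC libraries had r of -0.03, -0.06 and -0.10 over 9 libraries. Those of WT HSC and WT KL had r of 0.62, -0.64 and 0.70, each set of deviations holding 1 of the libraries against their labels. Over 7 libraries the 1 pair left of WT HSC and WT KL had r of -0.06. Over 9 libraries 0 to 2 of 6 libraries per comparison correlated best with their own number. With the replicate number as a block 0 members were called in the 3 comparisons over 9 libraries, and 0, 6 and 4 over 7 libraries, for Evi1 HSC against WT HSC, then Evi1 HSC and then WT HSC against WT KL. Differences not called in their own comparison with all 9 or all 7 libraries changed sign. Mxd3 was -0.11 in WT HSC and -0.0283 in Evi1 HSC, both against WT KL, with quantile normalization over 9 libraries, -0.41 in Evi1 HSC over 7, and 0.0307 in WT HSC over 7 when rescaled to the listed genes. Ranges with each library left out were, over 9 libraries for Evi1 HSC against WT HSC, -0.0306 to 2.97 for Mycn, -0.28 to 0.0488 for Max and -0.14 to 0.97 for Mxd4. For WT HSC against WT KL they were -0.10 to 0.31 for Mxd3, -0.89 to 0.48 for Mxi1, -0.0835 to 0.50 for Mnt and -0.12 to 0.34 for Mga. Over 7 libraries they were -0.0877 to 0.0714 for Mycn, -0.23 to 0.10 for Max, -2.40 to 0.34 for Mxi1 and -0.0566 to 0.19 for Mga in Evi1 HSC against WT HSC, -0.29 to 0.26 for Mxd3 and -2.59 (adjusted p = 0.00327) to 0.15 for Mxi1 in WT HSC against WT KL, and -0.0669 to 0.48 for Mxd3 in Evi1 HSC against WT KL. The causes of these changes were not tested.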
